A study of Xenopus tropicalis with 18 samples.

Results

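Foregut explants from Xenopus tropicalis embryos treated with BMS493 were compared with control foregut explants at stage 33 of the Nieuwkoop and Faber series, when the tailbud embryo begins to form organ buds along its gut. The comparison holds 3 BMS493 libraries and 3 control foregut libraries, chosen by labelled tissue and treatment, of 18 libraries in the study. Every embryo was wild type, and each library is a pool of 8 explants of mesoderm with endoderm. BMS493 embryos were labelled with 100 nM of the drug from stage 15 to stage 33 and with no other agent. The other treated foregut groups, also of 3 libraries each, were cyclopamine and Rfx6 morpholino foregut. Cyclopamine, which blocks Hedgehog signalling by binding Smoothened, was labelled at 40 µM from stage 15 to stage 33. Rfx6 morpholino embryos were labelled with 1 ng of the morpholino (500 pg in each cell) and 0.1% DMSO. Control foregut embryos were labelled with 0.1% DMSO and 1 ng of a mismatch morpholino, injected at the 2-cell stage with 500 pg in each cell. In BMS493 against control foregut, therefore, the drug cannot be told apart from the absence of DMSO and of the mismatch morpholino from the label. Control head with pharynx and control hindgut, in 0.1% DMSO and 3 libraries each, served here to place genes along the body axis.

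Retinoic acid is made in trunk mesoderm by retinaldehyde dehydrogenases and broken down by Cyp26 enzymes, which in the early embryo leaves the head low in it. It binds heterodimers of retinoic acid receptors and retinoid X receptors on DNA, which hold corepressors when no ligand is bound. BMS493 is an inverse agonist that favours corepressor binding. In vertebrate embryos the signal is known for giving hindbrain, pharynx and foregut their posterior identity and for its need in pancreas and lung formation.

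Total counts were 29667904 to 81614727 per BMS493 library and 26006163 to 45586493 per control foregut library, so that 1 CPM (the count scaled to library size) stood for 26 counts or more. The gene identifiers are not paired with symbols in the files, and none of the 28863 matched the RefSeq gene table used here. Genes are therefore described by where they were expressed along the axis of control embryos, and foregut, heart, blood or other marker genes could not be looked up to check the tissue labels. BMS493 replicates 1 and 2 lay close together: of 16543 genes with at least 100 counts, 23.3% differed between them past the 5% limit of a chi-square test, where sampling alone gives 5%. For the pairs with replicate 3 this was 53.6% and 51.1%, and for pairs of control foregut libraries 41.1 to 56.5%. Replicates 1 and 2 were as close in the other treated groups, at 19.5% in cyclopamine and 23.8% in Rfx6 morpholino foregut. Among genes with at least 2000 counts the largest difference between replicates 1 and 2 was 0.33 on the log2 scale, and between replicates 1 and 3 it was 6.78. The study's design describes 3 pools per condition, each taken as a biological replicate. Replicates 1 and 2 were therefore kept as separate libraries, and the main results are also given with these 2 summed.

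The first question was how far the treatment moved single genes. Of 18542 genes tested, 46.7% differed between BMS493 and control foregut, 22.3% being higher and 24.3% lower (quasi-likelihood F test of edgeR with Benjamini-Hochberg adjustment, at a limit of 0.05). In numbers, 4139 genes were higher and 4511 lower. With BMS493 replicates 1 and 2 summed, 3527 genes were higher and 3816 lower. Summing replicates 1 and 2 in each treated group left 2850 higher and 3162 lower. A fit of only the BMS493 and control foregut libraries gave 3344 higher and 3703 lower. Most changes were small: the size of the log2 fold change had a median of 0.59 among called genes, and its SE a median of 0.12. The direction of such small changes depends on the scaling: 47.8% of the called genes were higher with TMM scaling and 66.3% with total counts alone, which put the median of all genes at 0.13 on the log2 scale.

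Large changes were not balanced between the directions. Of all genes tested 6.19% were called at least 2-fold higher and 7.03% at least 2-fold lower. At 4-fold or more, 2.59% were higher and 1.14% lower. At 8-fold or more, 293 genes (1.58%) were higher and 14 (0.0755%) lower. Over the alternatives tried, the genes at least 8-fold higher numbered 229 to 328 and those at least 8-fold lower 8 to 40, and with replicates 1 and 2 summed there were 295 and 18. The 293 genes had a median of 2.68 TPM in BMS493 foregut and 0.0433 TPM in control foregut, where TPM is the authors' level per transcript length and library depth. Taking the genes with 0 counts in every control foregut library at the level that 3 counts over the group would give, 291 remained at 8-fold or more.

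The genes that rose most were near silence in control foregut, whereas the genes that fell mostly stayed measurable. Among tested genes, 143 had 3 or fewer counts over the 3 control foregut libraries together. Of these, 76 were at 1 TPM or more in every BMS493 library, and the highest reached a mean of 229.7 TPM. Only 7 tested genes had 3 or fewer counts over the 3 BMS493 libraries, and none of them was at 1 TPM or more in every control foregut library. A gene without counts in a group passed the expression filter through other foregut libraries, so these numbers describe the libraries and are no test. The BMS493 group also held more counts in total, so 3 counts mark a lower level there than in control foregut. The part of depth in this difference was not tested.

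The axis position of a gene was taken from the head with pharynx and hindgut libraries alone, in a fit that held no foregut library. Anterior genes were called at least 2-fold higher in head with pharynx than in hindgut (2506 genes, 13.7% of 18236 tested) and posterior genes at least 2-fold lower (2619 genes, 14.4%). The term posterior gives only the order of these ends, and such genes can be high in foregut too. Of 409 posterior genes at 16-fold or more with at least 1 TPM in hindgut, many reached their hindgut mean in control foregut. They numbered 186, 160 and 179 in control foregut replicates 1, 2 and 3. Genes that were not called and differed by less than 0.5 on the log2 scale are termed flat. No library of this fit enters the BMS493 comparison.

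**Figure D1:**
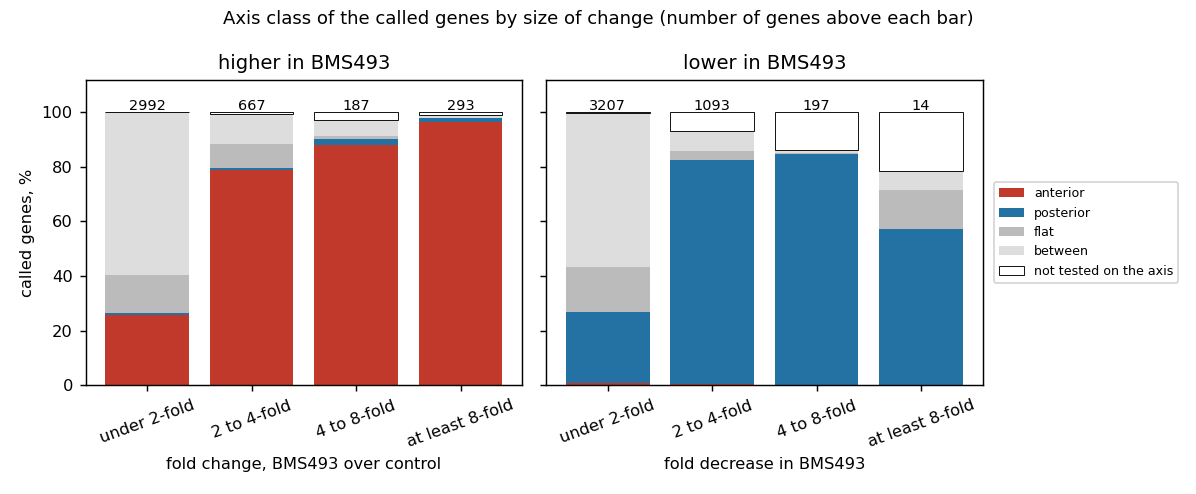
Share of called genes in each axis class (vertical axis, %) by the size of the change between BMS493 and control foregut, with higher genes on the left and lower genes on the right and the number of genes above each bar. "Between" marks genes that are neither flat nor 2-fold. Of the 293 genes at least 8-fold higher, 283 were anterior, and of the 197 genes 4 to 8-fold lower, 167 were posterior.

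Set against axis position, genes with larger rises in BMS493 foregut were more often anterior, and those with falls of 2 to 8-fold mostly posterior. Anterior genes made up 12.8% of the genes tested, but 25.7% of those raised less than 2-fold, 78.9% of those raised 2 to 4-fold, 88.2% of those raised 4 to 8-fold and 96.6% of those raised 8-fold or more. The strongest anterior class, at least 16-fold above hindgut, held 241 of the 293 genes raised 8-fold or more. On the other side, posterior genes made up 14% of the genes tested, 26% of those lowered less than 2-fold, 82% of those lowered 2 to 4-fold and 84.8% of those lowered 4 to 8-fold. Of the 14 genes lowered 8-fold or more, 8 were posterior (57.1%), 2 flat and 3 not tested on the axis. The posterior share was thus smaller at this last step. In all, 545 of the 18542 genes passed the expression filter in foregut but not in the axis fit. They held 27 of the 197 genes lowered 4 to 8-fold. Of the 545, 19.3% were called at least 2-fold lower and 2.39% at least 2-fold higher, beside 7.03% and 6.19% of all genes tested. They passed the filter through foregut libraries, so these shares are a description. The 293 genes had a median of 6.11 TPM in head with pharynx and 0.04 TPM in hindgut, and the 197 genes lowered 4 to 8-fold had 0.0733 TPM and 3.15 TPM.

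Most genes of every axis class were called in the direction of that class. Of 500 anterior genes at 16-fold or more, 423 passed the expression filter, and 362 of them were higher and 3 lower in BMS493 foregut. Of 772 tested anterior genes at 4 to 16-fold, 624 were higher and 5 lower, and of 1184 at 2 to 4-fold, 758 were higher and 27 lower. Of all genes tested 22.3% were higher. Some of the 423 may have passed the filter only because they were high in BMS493 foregut. Without a filter 365 of the 500 (73%) were higher and 3 lower, against 633 of 808 (78.3%) higher in the class at 4 to 16-fold. With the filter kept, DESeq2 gave shares of 70.2% and 82.6%. Leaving out control replicate 1, 2 or 3 gave 66.7, 71 and 70.4% against 73, 75.4 and 73.4%. The order of these classes by share called thus depends on the filter, the test and the control libraries. The median log2 fold change without a filter was 4.06 in the strongest class and 1.18 at 4 to 16-fold.

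Posterior genes were called in the lower direction. Of 470 tested posterior genes at 16-fold or more, 413 were lower and 1 higher. Of 803 at 4 to 16-fold, 634 were lower and 8 higher, and of 1314 at 2 to 4-fold, 858 were lower and 26 higher, where 24.3% of all genes tested were lower. With BMS493 replicates 1 and 2 summed, 350 of 434 anterior genes at 16-fold or more were higher and 399 of 471 posterior genes lower. Without replicate 3 these were 317 of 433 and 384 of 472.

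**Figure D2:**
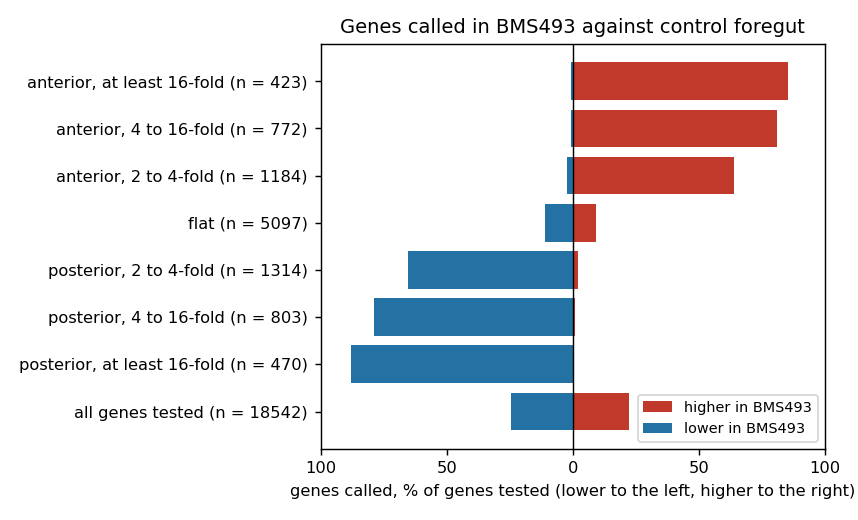
Percent of tested genes called higher (red, right) or lower (blue, left) in BMS493 than in control foregut, for each axis class from most anterior (top) to most posterior, with all genes tested in the last bar. The share called higher was 85.6% in the strongest anterior class, and the share called lower was 87.9% in the strongest posterior class.

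The sizes of the changes differed in form between the ends. Among anterior genes the median log2 fold change grew with axis strength, from 0.60 for genes 1 to 2 log2 units above hindgut, to 1.14 at 2 to 4 units, 2.63 at 4 to 6 units and 4.61 at 6 to 8 units (4.36 with genes at 0 in control taken at 3 counts). The 91 anterior genes 10 or more log2 units above hindgut had a median of 36.0 TPM in BMS493 foregut and were listed at a median of 0 TPM in control foregut. Posterior genes levelled off. Their median was -0.63 at 1 to 2 units, -1.08 at 2 to 4, -1.41 at 4 to 6, -1.93 at 6 to 8 and -1.95 at 8 to 10 units, and -1.76 for the 40 genes at 10 units or more. Those 40 genes had a median of 2.06 TPM in BMS493 foregut and 6.94 TPM in control foregut.

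**Figure D3:**
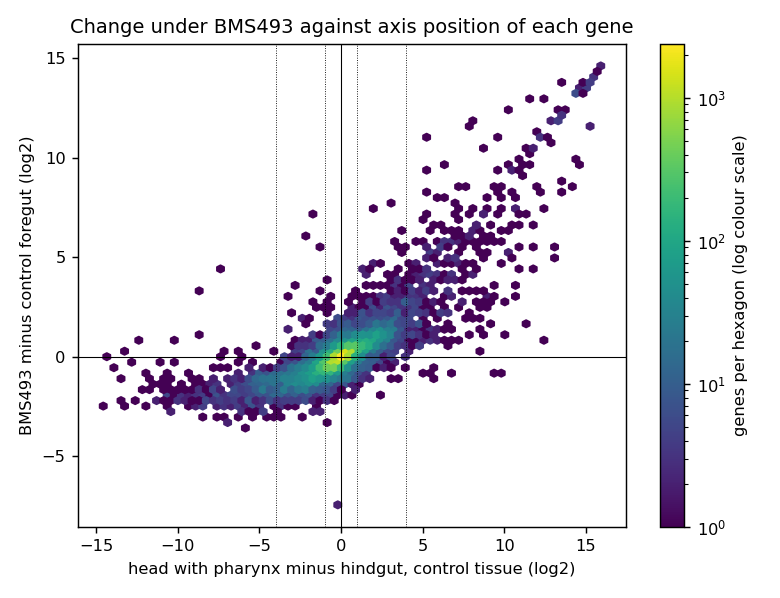
Log2 fold change of BMS493 over control foregut (vertical) against the log2 difference of head with pharynx over hindgut (horizontal). About 18000 genes tested in both fits are shown, shaded by the number of genes per hexagon on a log scale. Dotted lines mark 2-fold and 16-fold. The cloud climbs steeply on the anterior side and flattens near -2 on the posterior side.

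Across these genes, about 18000, the log2 fold change and the axis difference had a Pearson r of 0.80 and a Spearman rho of 0.77. The points share the 12 foregut libraries on one side and the 6 axis libraries on the other, and genes are not independent replicates.

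How close the anterior genes came to their level in head with pharynx was read from TPM for 382 of the 500 strongest anterior genes, those at 1 TPM or more there, whether or not they passed the filter in foregut. In BMS493 replicate 1 the median gene stood at 31.7% of its head with pharynx mean, in replicate 2 at 32.3% and in replicate 3 at 77.3%. In control foregut the medians were 1.41, 1.56 and 1.56%. Every BMS493 library lay above every control library, and replicate 3 lay far above the other 2 BMS493 libraries. A rise in such pooled tissue can come from more cells of a type or from more RNA per cell, and bulk libraries cannot tell these apart.

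Few genes of this list stayed near silence in BMS493 foregut. Genes under 1% of their head with pharynx level numbered 1, 3 and 0 of 382 in BMS493 replicates 1, 2 and 3. In control foregut replicates 1, 2 and 3 they numbered 177, 167 and 166. Genes at 50% of that level or more numbered 111, 107 and 354 in the BMS493 libraries, against 12, 17 and 18 in the control libraries. The middle 50% of the genes spanned 17.9 to 52.9% in BMS493 replicate 1 and 64.0 to 92.7% in replicate 3.

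The BMS493 libraries thus split the strongest anterior genes by how widely they reached the head with pharynx level. At 50% or more in all 3 libraries were 98 genes, which had a median of 1.28 TPM in control foregut, or 16.6% of their head with pharynx level. Another 236 genes passed 50% in replicate 3 alone, and their median in control foregut was 0.04 TPM, or 0.689%. Under 50% in every BMS493 library were 26 genes. The sets were formed from these same libraries and are a description.

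Posterior genes lost part of their level. For 408 posterior genes at 16-fold or more with at least 1 TPM in hindgut and a value above 0 in control foregut, the median gene kept 40.1% of its control foregut mean in BMS493 replicate 1, 39.1% in replicate 2 and 26.3% in replicate 3. In head with pharynx the same genes stood at medians of 2.44 to 2.65% of the control foregut mean. Their low level in head with pharynx follows from how the list was formed. In BMS493 replicates 1, 2 and 3, 272, 281 and 382 of the 408 genes were under 50% of their control foregut mean. The median gene kept 68.1, 66.3 and 79.9% in cyclopamine replicates 1, 2 and 3. In Rfx6 morpholino replicates 1, 2 and 3 it kept 76.0, 70.8 and 69.5%. The less steep posterior class, at 4 to 16-fold, kept 54.8, 54.6 and 44.5% in the BMS493 libraries, where head with pharynx stood at 23.2 to 25.7%.

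**Figure D4:**
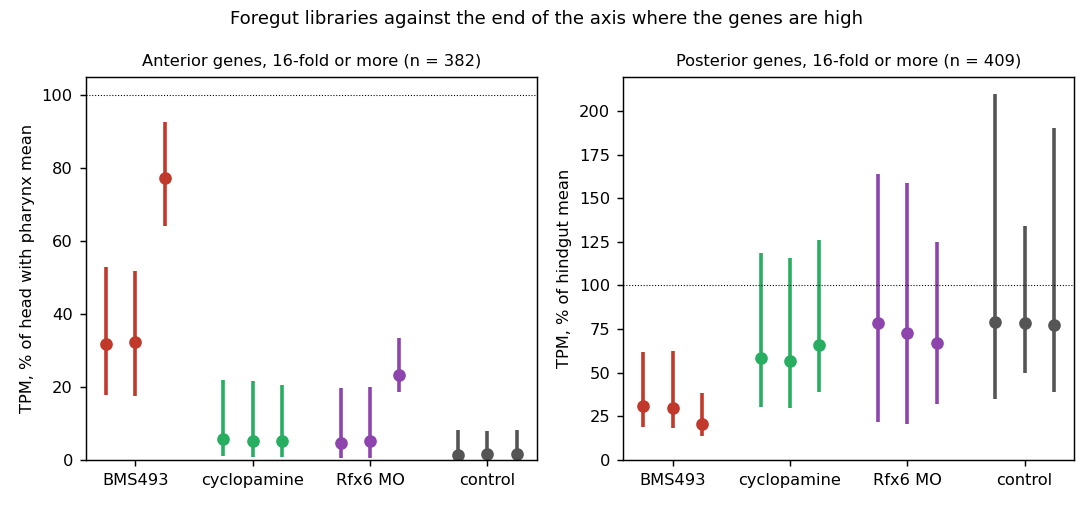
TPM in each foregut library as a percent of the mean in head with pharynx for 382 anterior genes (left) and of the mean in hindgut for 409 posterior genes (right); points are medians over genes and lines span the middle 50% of genes, with replicates 1 to 3 from left to right in each group. BMS493 libraries sit at medians of 31.7 to 77.3% on the left, above all others, and at 20.5 to 30.8% on the right, below all others.

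As a share of all transcripts the 500 strongest anterior genes held 0.922 ± 0.547% in BMS493 foregut and 0.101 ± 0.0277% in control foregut, beside 2.02 ± 0.160% in head with pharynx (SD, n = 3 in each). The 478 strongest posterior genes held 2.85 ± 0.652% in BMS493 foregut and 7.34 ± 0.377% in control foregut, beside 8.54 ± 0.195% in hindgut (SD, n = 3 in each). In both lists the 3 BMS493 values lay apart from the 3 control values, and replicate 3 of BMS493 was the farthest from control. The strongest anterior genes held 0.198 ± 0.013% in cyclopamine and 0.26 ± 0.19% in Rfx6 morpholino foregut (SD, n = 3 in each). The strongest posterior genes held 5.27 ± 0.33% and 4.96 ± 0.20% in these groups (SD, n = 3 in each). In both lists the means of these groups thus differed from control foregut in the same direction as BMS493, by less. For Rfx6 morpholino the anterior mean leaned on replicate 3: replicates 1, 2 and 3 held 0.159, 0.154 and 0.478%. Over anterior genes at 4 to 16-fold these 3 libraries held 0.3564, 0.3625 and 0.5212%. Control foregut libraries held 0.3702 to 0.3997% there, so replicates 1 and 2 lay below them.

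Replicate 3 differed from the other BMS493 libraries mainly upward and in anterior genes. It was at least 4-fold above both other BMS493 libraries in 102 genes, of which 86 were in the strongest anterior class, which held 2.28% of all genes tested. It was at least 4-fold below both in 35 genes, of which none was anterior, 2 were posterior and 11 were flat, where posterior genes made up 14% and flat genes 27.5% of all genes tested. Relative to replicates 1 and 2, replicate 3 had a median difference of 0.84 on the log2 scale over the strongest anterior genes and -0.63 over the strongest posterior genes, and of 0.00 over flat genes. Control foregut replicate 2 also stood apart, with 147 genes at least 4-fold below both other control libraries, of which 17 were anterior and 28 posterior. Of the 28, 19 were in the strongest posterior class, which held 2.5% of all genes tested. Over that class control replicate 2 had a median difference of -0.29 on the log2 scale from control replicates 1 and 3. Without control replicate 2, 321 of 452 tested anterior genes at 16-fold or more were higher in BMS493 foregut and 418 of 472 posterior genes lower. Whether these libraries differed in the tissue taken at dissection was not tested.

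A contrast that gives the control foregut libraries no weight set BMS493 against the mean of the cyclopamine and Rfx6 morpholino groups. It came from the fit of all 12 foregut libraries, so control foregut still entered the filter, scaling and spread. In that fit 3711 genes were higher and 4091 lower. A fit without the control foregut libraries gave 4412 higher and 4468 lower. BMS493 foregut was higher in 20% of the 18542 genes and lower in 22.1%. Of the 423 strongest anterior genes tested 330 were higher and 1 lower, with a median log2 difference of 2.13, and of the 470 strongest posterior genes 357 were called lower and 1 was called higher (median -1.25). Over all genes the median was -0.01. The anterior list holds 500 genes, and some of the 423 may have passed the filter only because they were high in BMS493 foregut. No share without a filter was computed for this contrast, so the 330 calls are a description. Replicate 3 of the Rfx6 morpholino group was itself high in these anterior genes, at a median of 23.3% of the head with pharynx level, where its replicates 1 and 2 stood at 4.53 and 5.25%.

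BMS493 against cyclopamine compares groups whose labels name a drug and no morpholino. BMS493 foregut was higher here in 17.9% of all genes tested and lower in 20.8%, or 3312 and 3864 genes. A fit of only these 2 groups gave 4183 higher and 4180 lower. Of the strongest anterior genes 309 of 423 were higher and 7 lower (median 2.47), and of the strongest posterior genes 340 of 470 were lower and none higher (median -1.17). The same limit of the filter holds for these 423 genes, and the 309 calls are a description. The median anterior gene stood at 5.16 to 5.74% of its head with pharynx level in cyclopamine libraries. The calls of both contrasts fell when replicates 1 and 2 were summed in every treated group, to 1883 higher and 2022 lower against the other treatments and to 1527 higher and 1845 lower against cyclopamine.

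Flat genes were called at lower shares than all genes tested, and few of them changed 2-fold. They were selected for not being called on the axis, and the part of this selection in their lower share was not tested. Genes tested on the axis that were neither flat, anterior nor posterior were called at 23.6% higher and 23.9% lower. Of 5097 flat genes tested 9.32% were higher and 11% lower in BMS493 foregut, where all genes tested gave 22.3% and 24.3%. With total counts alone these shares of flat genes were 25.5% higher and 4.98% lower, so their balance rests on the scaling. At 2-fold or more, 59 were higher and 39 lower (1.16% and 0.765%, beside 6.19% and 7.03% of all genes). The number of flat genes called, 1038, fell to 697 with BMS493 replicates 1 and 2 summed, to 449 with replicates 1 and 2 summed in each treated group, to 651 with only the libraries compared and to 690 without BMS493 replicate 2. The 59 raised flat genes had a median of 1.24 TPM in BMS493 foregut, 0.807 TPM in cyclopamine foregut, 0.81 TPM in Rfx6 morpholino foregut and 0.453 TPM in control foregut. Of these 59 genes 17 were also called higher against the other treated foregut, where 20% of all genes tested were higher. Of the 39 lowered flat genes, which stood at 0.933 TPM in BMS493 and 1.96 TPM in control foregut, 20 were also called lower in that contrast. There 22.1% of all genes tested were lower. Both contrasts hold the same BMS493 libraries, which also chose these genes, so the second calls are a description and no further test.

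Few genes moved against their axis class. In BMS493 foregut 35 of 2587 tested posterior genes were higher and 35 of 2379 anterior genes lower. Of the posterior ones 14 rose at least 2-fold, with medians of 1.49 TPM in BMS493 foregut, 0.848 TPM in cyclopamine foregut, 2.58 TPM in Rfx6 morpholino foregut and 0.335 TPM in control foregut. They stood at 1.42 TPM in head with pharynx and 2.41 TPM in hindgut. Only 1 of these 14 was called higher against the other treated foregut, where 20% of all genes tested were higher. That contrast holds the same BMS493 libraries and is no further test of these genes. Among anterior genes 6 fell at least 2-fold, with medians of 6.92 TPM in BMS493 foregut and 13.8 TPM in control foregut.

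To show the change in single genes, 4 identifiers were taken by a fixed rule as the most abundant genes that changed at least 4-fold without overlap between the groups. In all, 479 genes met these limits in the higher direction and 202 in the lower, beside 26.9% and 26.2% of all genes whose groups did not overlap in either direction. All 4 belong to the strongest axis classes, and no gene name or function can be given for them. Their lack of overlap and their calls against control foregut follow from this rule and are no further test. The BMS493 values that chose these genes also enter their differences from cyclopamine foregut. Those differences and their adjusted p-values are therefore a description and no independent test.

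XBXT10g003209 had 601, 576 and 843 TPM in BMS493 replicates 1, 2 and 3, against 127, 106 and 128 TPM in control foregut replicates 1, 2 and 3. The groups lay far apart, and replicate 3 was the highest BMS493 library. Its log2 fold change was 2.35 (SE 0.30, edgeR adjusted p = 0.000183). It also exceeded its level in cyclopamine foregut, 354 ± 56.4 TPM (SD, n = 3), by 0.80 on the log2 scale (edgeR adjusted p = 0.0474). In head with pharynx it had 1154 ± 44.0 TPM (SD, n = 3) and in hindgut replicates 1, 2 and 3 it had 46.3, 26.3 and 37.5 TPM, so the BMS493 level lay between the ends.

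XBXT10g003412 had 206, 212 and 375 TPM in BMS493 replicates 1, 2 and 3, against 23.7, 13.4 and 25.4 TPM in control foregut. Again replicate 3 was the highest BMS493 library. Its log2 fold change was 3.52 (SE 0.49, adjusted p = 0.000405). Cyclopamine foregut had 34.1 ± 4.66 TPM (SD, n = 3), and Rfx6 morpholino replicates 1, 2 and 3 had 57.1, 54.8 and 160 TPM. The difference from cyclopamine was 2.82 on the log2 scale (edgeR adjusted p = 0.00151). Head with pharynx had 585 ± 11.0 TPM (SD, n = 3).

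XBXT10g013169 had 268, 264 and 144 TPM in BMS493 replicates 1, 2 and 3, against 1626, 660 and 1346 TPM in control foregut. Control replicate 2 had far less than the other 2 control libraries. Its log2 fold change was -2.58 (SE 0.37, adjusted p = 0.000394). Cyclopamine foregut also lay low, at 473 ± 35.1 TPM, and Rfx6 morpholino foregut stood at 959 ± 168 TPM (SD, n = 3 in each). The difference of BMS493 from cyclopamine foregut was -1.20 on the log2 scale (edgeR adjusted p = 0.0233). Head with pharynx had 3.67 ± 0.360 TPM (SD, n = 3), so the gene remained well above that level in every BMS493 library. Hindgut replicates 1, 2 and 3 had 689, 345.5 and 628 TPM. The gene's mean was thus higher in control foregut than in hindgut, though the libraries of these groups overlapped.

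XBXT10g003614 had 177, 170 and 103 TPM in BMS493 replicates 1, 2 and 3, against 1076, 1161 and 1022 TPM in control foregut. Control libraries were close together here, and all BMS493 libraries lay below them. Its log2 fold change was -2.98 (SE 0.19, adjusted p = 9.16e-07), and against cyclopamine foregut, at 601 ± 26.7 TPM (SD, n = 3), it was -2.12 (edgeR adjusted p = 1.56e-05). Hindgut had 1285 ± 49.0 TPM and head with pharynx 4.07 ± 1.39 TPM (SD, n = 3 in each).

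**Figure D5:**
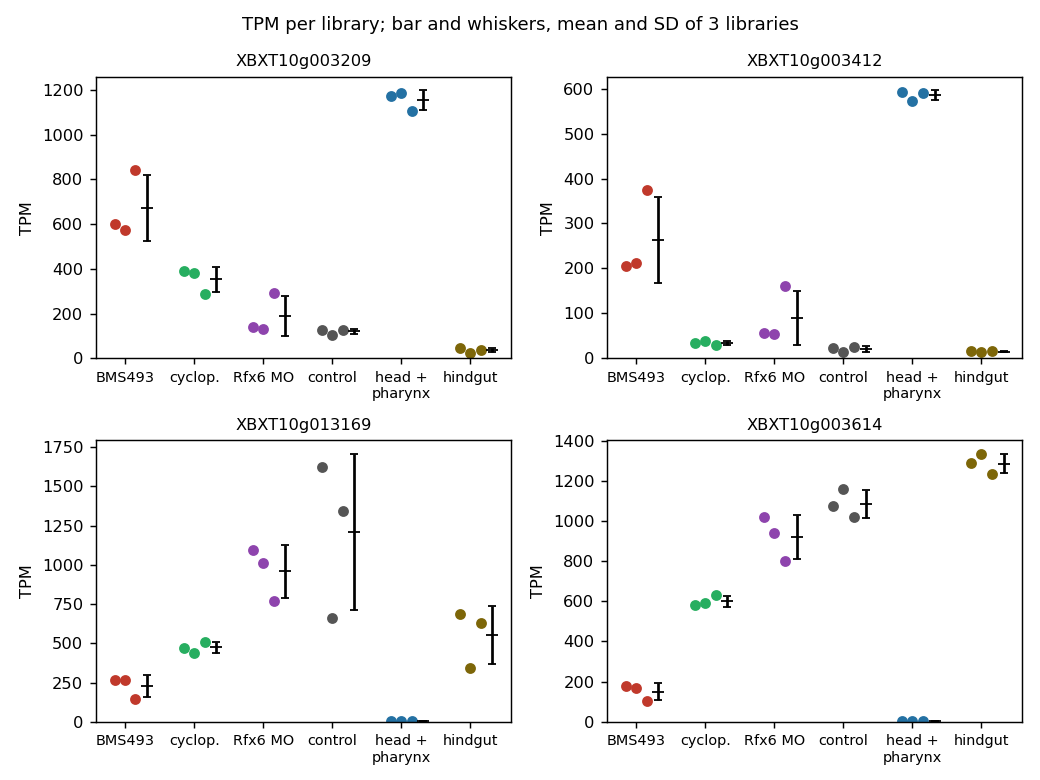
TPM of the 4 named genes in all 18 libraries (points) with the mean and SD of each group of 3. The upper 2 genes are high in BMS493 foregut and highest in head with pharynx; the lower 2 are low in BMS493 foregut and nearly absent from head with pharynx.

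The abundant genes of this kind were mostly axis genes, as were genes with such changes at any level. Of all genes called at least 4-fold higher, 93.3% were anterior. Among the 8 most abundant raised genes, at 177.7 to 673 TPM in BMS493 foregut, 7 were anterior. The remaining one had 250.5, 249.7 and 159 TPM in BMS493 replicates 1, 2 and 3, 90.8, 90.1 and 78.2 TPM in cyclopamine replicates 1, 2 and 3, 168, 157 and 96.6 TPM in Rfx6 morpholino replicates 1, 2 and 3, and 29.8, 30.2 and 26.1 TPM in control foregut replicates 1, 2 and 3. It was low at both ends of the axis, at 17.0 TPM in each head with pharynx library and 22.0 to 25.3 TPM in hindgut. All 3 treated foregut groups lay above control foregut in this gene, and BMS493 overlapped the Rfx6 morpholino group. It was chosen after its values were seen. All 8 of the most abundant lowered genes belonged to the strongest posterior class, which held 60.7% of all genes called at least 4-fold lower.

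Gene length and abundance moved with some of the calls, and their part in the result was not tested. Genes were ordered by relative transcript length, computed from counts per TPM, and divided into 4 bins of equal size. From the shortest bin to the longest, 16.4, 21.7, 26.1 and 29.8% of genes were higher in BMS493 foregut, so this share grew with length, and 24.2, 27.8, 27.1 and 24.5% were lower. At 2-fold or more the higher share was nearly level, at 5.57, 5.45, 5.89 and 5.67%, and the lower share was 7.87, 8.02, 6.66 and 4.87%. In 4 bins of mean TPM, from lowest to highest, 13.1, 6.54, 3.24 and 1.88% were at least 2-fold higher and 11, 7.16, 4.72 and 5.20% at least 2-fold lower. Large changes were thus most frequent among genes of low abundance.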

How the data were processed

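Pools of 8 explants, per the series' design text, gave stranded mRNA libraries, per the labels' protocols. Estimated counts for each gene, already whole numbers, were deposited by the authors together with a second table of TPM, which they scaled for length and depth. The submitters' processing notes name RSEM 1.3.0 and Bowtie2. The genome build and annotation were not given in the sources used here. Columns were matched to samples by title. The description lines of BMS493 replicates 2 and 3 repeat replicate 1, so titles decided. The 1 entry that names no gene held 0 counts.

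The count test was that of edgeR 4.0.16 under R 4.3.3 (TMM scaling, minimum count 10, robust quasi-likelihood fit, group as the only term) over the 12 foregut libraries, with SE taken from the log2 fold change and its F value. The step was tested on simulated data. Head with pharynx and hindgut were fitted alone to place genes on the axis. The 4 named genes are the 2 with the highest mean TPM in BMS493 foregut among genes called, at least 4-fold higher and without overlap, and the 2 with the highest mean TPM in control foregut among the corresponding lowered genes. The comparison, lists and limits were chosen with earlier results of these data known. No sequencing batch is labelled, and p-values measure the spread between these libraries. The sharing of reads among near-identical copies of a gene was not studied. Of the genes tested, 39 had the same counts in all 18 libraries as another identifier. DESeq2 1.42.0 and limma 3.58.1 served for alternatives.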

Additional observations from a re-analysis of the deposited data

How the results depend on the processing

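The counts of genes at least 2-fold higher or lower in BMS493 than in control foregut moved by less than 1.5 times under every alternative tried (other scaling, no filter, DESeq2, only the libraries compared, replicate block, single libraries left out, replicates summed). With total counts alone 6365 genes were higher. Flat genes called numbered 651 with only the libraries compared, 449 with replicates 1 and 2 summed in each treated group, and 690 to 1184 with 1 library left out. That summing also gave 1883 higher and 2022 lower against the other treated foregut and 1527 and 1845 against cyclopamine. With lists at 4-fold, which hold fewer genes, 986 anterior genes were higher and 1047 posterior genes lower. Summing leaves fewer libraries, and total counts alone shift the median of all genes; the cause of the other shifts was not tested. The 4 named genes kept direction and call in 17 alternatives each. With the replicate block 4399 genes were higher and 4651 lower, and no call of a named gene changed. Deviations of same-numbered BMS493 and control libraries correlated at 0.0298, 0.0108 and 0.0585 across genes, so the numbers showed no clear pairing of these groups. Whether replicate numbers mark a shared clutch or batch among the treated groups was not tested. Depth limits anterior genes near 0 in control foregut, whose fitted fold changes depend on the prior count.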
